A study of Mus musculus with 6 samples.

Results

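The heme, iron and redox genes described here are 6 genes measured in MLO-Y4, an osteocyte-like mouse cell line. Osteocytes are the long-lived cells inside mineralised bone. They are the heme oxygenase gene Hmox1, the ferritin light chain gene Ftl1, the metal importer genes Slc39a14 and Slc11a2, the mitochondrial superoxide dismutase gene Sod2 and the glucose-6-phosphate dehydrogenase gene G6pdx. They were chosen by gene symbol from a deposited table of messenger RNA sequencing, and 6 of its 2065 listed genes matched, 1 row for each symbol. The libraries compared were 3 labelled hypoxia (2% O2 in a hypoxic chamber, replicates 1, 2 and 4) and 3 labelled normoxia (20% O2, replicates 2, 3 and 4). All carry the label WT, are of 1 cell line and were grown for 24 h per their titles, while some descriptions state 25 or 26 h. Whether a replicate is a culture of its own is not said in the labels, and the p-values may then reflect no more than technical spread among these libraries.

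Heme oxygenase 1 opens the heme ring and releases iron, carbon monoxide and biliverdin. Freed iron is stored inside ferritin shells built of light and heavy chains, so that it cannot feed the reactions that turn peroxide into hydroxyl radicals. Iron enters cells through transferrin receptors and through carriers of the ZIP and NRAMP families, and the iron regulatory proteins bind hairpins in messenger RNAs to set ferritin translation and to protect the transferrin receptor transcript. Superoxide dismutase turns superoxide into peroxide, and glucose-6-phosphate dehydrogenase supplies the NADPH that peroxide removal and glutathione recycling consume.

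The deposited entry of each library is log2(value + 1), called the log2 entry below, and the linear value is 2 raised to the entry, minus 1. The linear unit is not named in the file and the sequencing depth is unknown. Values are therefore compared within a gene between libraries, and no level is ranked between genes. Ratios and shares between genes, where given, are read only for how they differ between libraries. Every gene in the table has a deposited log2 fold change of 1.00 or more in size, so the authors had picked all 6 members for their change in the libraries analysed here, and the p-values below describe the fit and are not independent evidence. Of 2056 genes tested with limma, 79.4% were higher and 20.6% were lower in the libraries labelled hypoxia at an adjusted p under 0.05, and 100% passed in one direction or the other. Of all 2065 listed genes, 79.3% were higher and 20.6% lower in every library labelled hypoxia than in any labelled normoxia, 99.9% together, so groups that do not overlap are the rule in this table. In bulk RNA, fewer cells of a kind and less RNA per cell cannot be told apart.

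The labels were read against targets of hypoxia-inducible factor, the transcription factor stabilised at low oxygen. Of 24 such genes on a written list, 16 were listed, of which 15 were lower and 1 was higher in the libraries labelled hypoxia, beside 20.6% lower and 79.4% higher of all tested genes. The glucose transporter gene Slc2a1 averaged 7.72 ± 0.12 in the libraries labelled hypoxia and 10.85 ± 0.10 in those labelled normoxia (log2 entries, SD, n = 3 each). Because these genes go against the labels, and Hmox1 is itself counted among targets of this factor, directions are stated by label: higher and lower are said of the libraries labelled hypoxia set against those labelled normoxia, whatever their oxygen was. Of 9 osteocyte markers 2 were listed, Pdpn and Trp53inp2, and the defining markers Sost, Dmp1, Phex, Mepe and Fgf23 were not among the selected genes. The summed linear value of the listed osteocyte markers ran from 290.2 to 305.7 in the libraries labelled hypoxia and from 79.8 to 92.1 in those labelled normoxia. Most of this sum was Pdpn, with mean linear values of 254.3 under the hypoxia label and 74.6 under the normoxia label. For Trp53inp2 the means were 41.4 and 9.82. Of 11 macrophage markers only Cd68 was listed, at summed linear values of 7.12 to 9.07 under the hypoxia label and 22.7 to 26.4 under the normoxia label, and 0 of 6 erythroid markers were listed. Of 7 osteoblast markers 4 were listed, Col1a1, Bglap and Bglap2 higher and Runx2 lower under the hypoxia label, with summed linear values of 212.0 to 259.5 under the hypoxia label and 62.5 to 79.9 under the normoxia label. The part of other cells in the results below was not tested.

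Of the 6 members the gene for heme breakdown differed most between the labels. Hmox1 (ENSMUSG00000005413, chromosome 8), which encodes the inducible heme oxygenase, had log2 entries of 9.43, 9.45 and 9.22 in the libraries labelled hypoxia and of 11.73, 12.03 and 12.02 in those labelled normoxia. The groups did not overlap, and the gap between them was 2.28 while the libraries of a group spread over 0.24 under the hypoxia label and 0.30 under the normoxia label. In linear values the mean was 662.2 in the libraries labelled hypoxia and 3912 in those labelled normoxia, 5.91-fold higher under the normoxia label. The difference on the log2 scale was -2.56 ± 0.11 (SE, 95% interval -2.80 to -2.32; limma, Benjamini-Hochberg adjusted p = 4.79e-08), and Hmox1 ranked 29 in size among the listed genes lower under the hypoxia label. No listed pseudogene whose transcript could be searched had Hmox1 as its closest coding transcript.

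Around Hmox1, 3 of 15 genes for heme uptake, breakdown and export were listed. Flvcr1, which encodes a heme exporter that is also known to carry choline, was lower too, at 3.51 ± 0.06 in the libraries labelled hypoxia and 4.60 ± 0.25 in those labelled normoxia (log2 entries, SD, n = 3 each). Hp, which encodes haptoglobin, the secreted binder of free hemoglobin, was higher under the hypoxia label by 5.09 ± 0.09 (log2 difference, SE). Of 12 genes for heme synthesis 2 were listed, both for late steps of porphyrin formation. As deposited, Uros was higher under the hypoxia label by 1.37 ± 0.09 and Cpox by 1.05 ± 0.07 (log2 differences, SE). With trimmed mean (TMM) scaling factors Cpox turned to -0.20 and Uros, at 0.24, was no longer called (limma, adjusted p = 0.068). These factors assume that the bulk of genes did not change, while all listed genes were picked for change. They moved the median log2 difference of all tested genes from 1.15 to 0.03. Genes near or below that median as deposited therefore fall near or below 0 by construction, here and in the paragraphs below. Alas1, the rate-limiting step outside red cells, and Fech, which inserts the iron, were not among the selected genes.

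Iron storage was represented by Ftl1 (ENSMUSG00000050708, chromosome 7) alone, the only listed gene of 14 for iron storage, release and regulation. Its log2 entries were 12.65, 12.68 and 12.63 in the libraries labelled hypoxia and 14.28, 14.51 and 14.59 in those labelled normoxia. The libraries labelled hypoxia lay within 0.05 of each other, those labelled normoxia within 0.31, and the groups were 1.60 apart. The mean linear value was 6448 under the hypoxia label and 22581 under the normoxia label, 3.50-fold higher under the normoxia label (log2 difference -1.80 ± 0.09, SE; limma, Benjamini-Hochberg adjusted p = 1.09e-07). Fth1, the heavy chain partner of Ftl1, was not among the selected genes, so the balance of the chains has no value here.

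Ftl1 has near-identical copies in the mouse genome. Of 173 listed pseudogenes and copies, only those with a transcript in GENCODE vM21 were searched, and their number was not counted. Among them, 4 had Ftl1 as their closest coding transcript. All 4 were lower in the libraries labelled hypoxia. The transcript of Ftl1-ps1, which the file calls protein coding, was 99.6% identical to Ftl1 over 910 aligned bases, that of Ftl2-ps 98.7% over 552 and that of Ftl1-ps2 97.8% over 549. The fourth is a predicted gene. Reads of such copies cannot be assigned to 1 locus with certainty.

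The linear value of Ftl1-ps1 was 21.2%, 21.4% and 21.5% of that of Ftl1 in the libraries labelled hypoxia and 20.3%, 21.2% and 21.8% in those labelled normoxia, a share that overlapped between the groups. Ftl2-ps stood at 1.62%, 1.33% and 1.36% of Ftl1 under the hypoxia label and at 0.845%, 1.09% and 1.29% under the normoxia label. These groups did not overlap, so Ftl2-ps differed less between labels than Ftl1 did. Ftl1-ps2 ran from 0.0441% to 0.108% under the hypoxia label and from 0.0428% to 0.0540% under the normoxia label, and its groups overlapped. Adding the 4 copies to Ftl1 in each library gave a log2 difference of -1.79, nearly that of Ftl1 alone. Ftl1-ps1, which added most to this sum, kept a near-constant share of Ftl1, so such a sum follows from it and does not test read sharing.

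**Figure D1:**
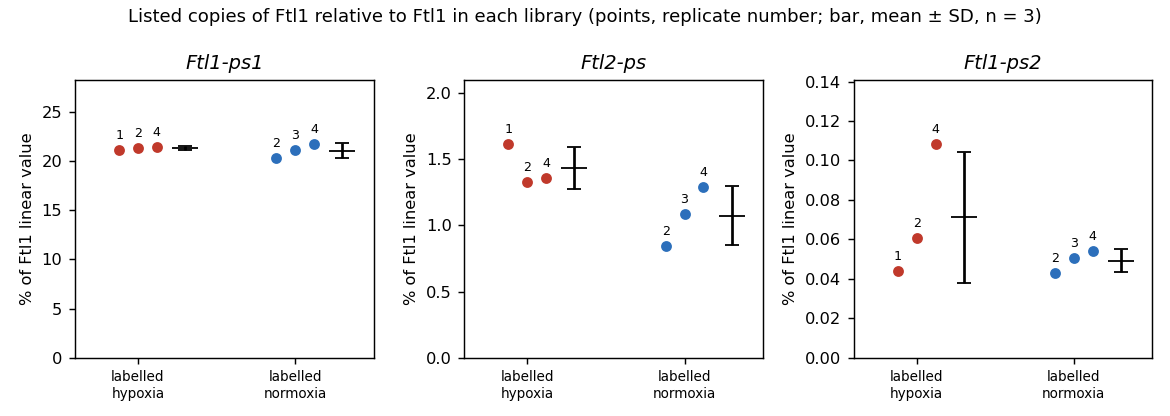
Linear values of 3 named copies of Ftl1 as a percent of the Ftl1 value in the same library (vertical axes, from 0), for libraries labelled hypoxia and normoxia. Points are libraries with their replicate number, and bars are means ± SD (n = 3). Ftl1-ps1 kept to 20.3% to 21.8% of Ftl1 in all 6 libraries, while Ftl2-ps was at 1.33% or more under the hypoxia label and at 1.29% or less under the normoxia label.

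The ferritin light chain messenger carries the best known iron response element, a hairpin in which a stem holds a CAGTGN loop with an unpaired C on its 5′ side. A search of GENCODE vM21 transcripts (GRCm38) for such a loop with 5 bases on each side all able to pair (G with T allowed), and a C before the pairing bases on the 5′ side, found the pattern in 294 of 21901 protein-coding genes, 1.34%. Among the members it was found in Ftl1 only, once, in the 5′ UTR (chr7:45459780-45459806, minus strand). It was found 4 times in the 3′ UTR of Tfrc, the transferrin receptor gene, which was listed too. The Ftl1 match and the first Tfrc match (chr16:32631220-32631246, plus strand) are shown to set the element of a storage gene beside that of an uptake gene, 5′ to 3′, with the 6 bases of the loop in capitals.
Ftl1: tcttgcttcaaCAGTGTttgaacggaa
Tfrc: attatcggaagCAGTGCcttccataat
A match is a description of the letters and not evidence of protein binding, and the pattern's absence from the transcripts of the other 5 members says only that this exact form is not in them.

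Both metal importer genes were higher under the hypoxia label as deposited, as were 79.4% of all tested genes. With TMM factors Slc39a14 was at 0.61 and Slc11a2 at 0.17 (log2 differences). Slc39a14 (ENSMUSG00000022094, chromosome 14) encodes ZIP14, a carrier of the ZIP family for zinc, manganese and iron that is not bound to transferrin. Its log2 entries were 6.94, 6.96 and 6.99 in the libraries labelled hypoxia and 5.17, 5.20 and 4.92 in those labelled normoxia. Mean linear values were 123.8 under the hypoxia label and 33.4 under the normoxia label, 3.71-fold higher under the hypoxia label (log2 difference 1.87 ± 0.09, SE; limma, Benjamini-Hochberg adjusted p = 7.38e-08).

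Slc11a2 (ENSMUSG00000023030, chromosome 15) encodes DMT1, which moves ferrous iron across the membranes of endosomes and of the gut. Its log2 entries were 6.25, 6.24 and 6.28 in the libraries labelled hypoxia and 4.90, 4.88 and 4.73 in those labelled normoxia. The groups of neither importer overlapped, and in both genes replicate 4 was the lowest library labelled normoxia and the highest labelled hypoxia. For Slc11a2 the mean linear value was 75.3 under the hypoxia label and 27.6 under the normoxia label, 2.73-fold higher under the hypoxia label (log2 difference 1.42 ± 0.07, SE; limma, Benjamini-Hochberg adjusted p = 1.37e-07). The file gives 1 value per gene, so the isoforms of Slc11a2 with and without an iron response element in the 3′ UTR, known from mammals, were not told apart.

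Of 17 genes for iron uptake and transport 8 were listed, and all 8 were higher in the libraries labelled hypoxia as deposited, beside 79.4% of all tested genes, with a median log2 difference of 1.72 beside 1.15 over all tested genes. Besides the importers they were the ferrireductase genes Steap1 (1.99 ± 0.07), Steap2 (1.58 ± 0.10) and Steap4 (2.16 ± 0.09), Lcn2 (5.66 ± 0.41), whose product binds iron-loaded siderophores, Tfrc (1.22 ± 0.07) and the ferroxidase gene Cp (1.18 ± 0.12), all as log2 differences with SE. With TMM factors Tfrc was at -0.03 and Cp at -0.08, and the other 6 were still called higher, beside 571 of the 1633 tested genes higher as deposited. Steap4 was barely present under the normoxia label, at 0.07 ± 0.05, and at 2.24 ± 0.07 under the hypoxia label (log2 entries, SD, n = 3 each). It met the filter only through the libraries labelled hypoxia, so its direction was fixed in advance and adds nothing to the counts above. With mean linear values of 3.72 and 0.05, the size of its log2 difference depends on the pseudocount. The iron exporter gene Slc40a1 was not among the selected genes. Of 13 genes for iron-sulfur cluster assembly only Glrx5 was listed, at a log2 difference of 1.00 ± 0.09 as deposited and of -0.24 with TMM factors.

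**Figure D2:**
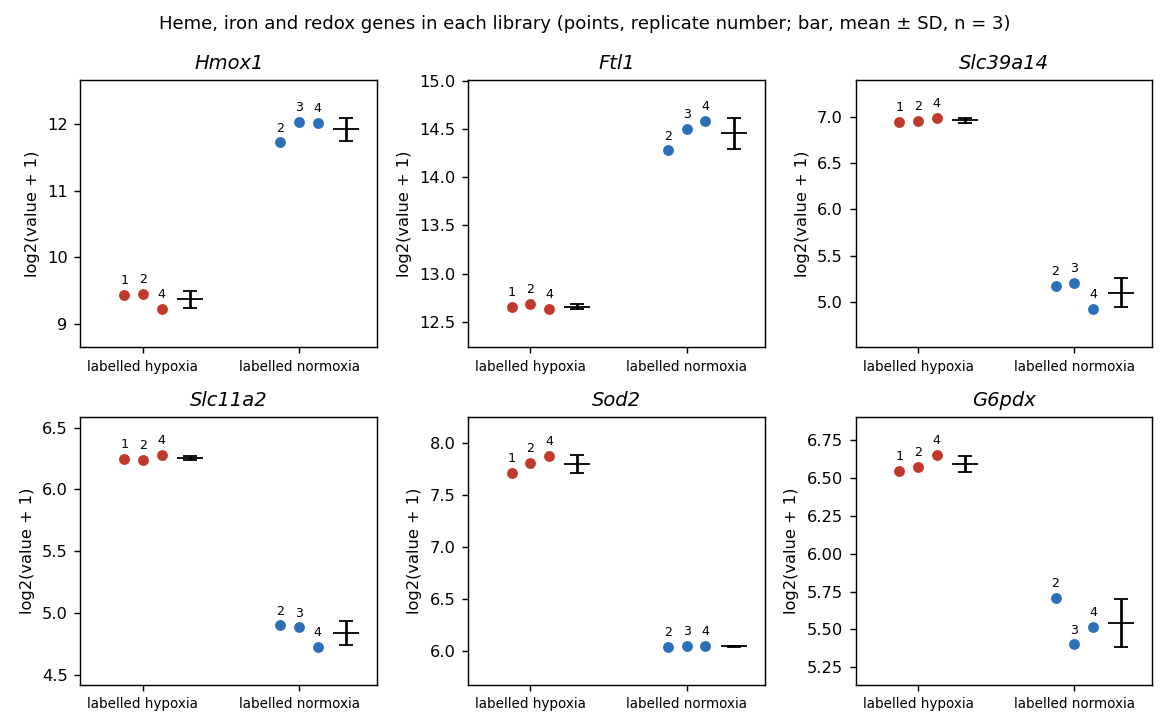
Log2 entries, log2(value + 1), of the 6 members in each library (vertical axes do not start at 0), for libraries labelled hypoxia and normoxia. Points are libraries with their replicate number, and bars are means ± SD (n = 3). Hmox1 and Ftl1 were lower in every library labelled hypoxia than in any labelled normoxia, and the other 4 genes were higher in every one as deposited.

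Both redox members stood higher under the hypoxia label as deposited, G6pdx not so with TMM factors. Sod2 (ENSMUSG00000006818, chromosome 17), the manganese enzyme of the mitochondrial matrix, had log2 entries of 7.71, 7.81 and 7.88 in the libraries labelled hypoxia and of 6.04, 6.05 and 6.05 in those labelled normoxia. The libraries labelled normoxia lay within 0.01 of each other, the tightest group of any member, and those labelled hypoxia within 0.16. Mean linear values were 221.8 under the hypoxia label and 65.1 under the normoxia label, 3.40-fold higher under the hypoxia label (log2 difference 1.75 ± 0.07, SE; limma, Benjamini-Hochberg adjusted p = 3.88e-08).

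G6pdx (ENSMUSG00000031400, X chromosome), the first and rate-limiting enzyme of the oxidative pentose phosphate pathway, had log2 entries of 6.55, 6.58 and 6.65 in the libraries labelled hypoxia and of 5.71, 5.40 and 5.52 in those labelled normoxia. It had the smallest gap between groups of the 6 members, 0.84, and its libraries labelled normoxia spread over 0.31, as those of Ftl1 did. Mean linear values were 95.5 under the hypoxia label and 45.8 under the normoxia label, 2.09-fold higher under the hypoxia label. The log2 difference was 1.05 ± 0.09 (SE, 95% interval 0.85 to 1.25; limma, Benjamini-Hochberg adjusted p = 1.57e-06), close to the authors' bound of 1.00 and below the median of 1.15 over all tested genes, and G6pdx ranked 1412 in size among the listed genes higher under the hypoxia label.

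Promoter sequence in RefSeq (GRCm38.p6, 250 bases before to 50 after the gene start) matched 3 of the 6 members by symbol, Ftl1, Sod2 and G6pdx. The 250 bases before the start are shown 5′ to 3′ on the gene's strand, to compare a gene lower under the hypoxia label with a pair that were higher there. Capitals mark matches on either strand to the hypoxia response element cores ACGTG and GCGTG, the antioxidant response element core TGACNNNGC, the AP-1 site TGANTCA and the NF-kB consensus.
Ftl1, chr7:45459887-45460136, minus strand: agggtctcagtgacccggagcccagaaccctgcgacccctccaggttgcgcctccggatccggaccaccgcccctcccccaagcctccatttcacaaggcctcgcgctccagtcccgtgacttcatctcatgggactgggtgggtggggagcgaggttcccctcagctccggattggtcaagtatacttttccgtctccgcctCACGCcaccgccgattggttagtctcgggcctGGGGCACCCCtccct
Sod2, chr17:13007589-13007838, plus strand: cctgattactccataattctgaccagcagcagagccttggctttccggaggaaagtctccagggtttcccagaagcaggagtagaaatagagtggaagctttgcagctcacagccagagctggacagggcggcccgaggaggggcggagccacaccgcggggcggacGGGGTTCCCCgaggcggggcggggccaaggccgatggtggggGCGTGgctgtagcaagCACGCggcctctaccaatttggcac
G6pdx, chrX:74428881-74429130, minus strand: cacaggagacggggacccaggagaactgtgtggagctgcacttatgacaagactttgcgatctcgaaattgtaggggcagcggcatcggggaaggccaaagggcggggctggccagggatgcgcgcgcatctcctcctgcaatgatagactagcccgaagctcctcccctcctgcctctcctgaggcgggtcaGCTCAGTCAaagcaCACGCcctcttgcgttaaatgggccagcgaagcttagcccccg
The core GCGTG, which 32.4% of 32851 promoter windows hold, was in all 3, whichever the direction of the gene. The NF-kB consensus, held by 4.51% of windows, began 83 bases before the start of Sod2, where both strands match it, and 15 bases before the start of Ftl1. The antioxidant core, held by 12.4%, began 57 bases before the start of G6pdx, and ACGTG, held by 19.6%, lay 29 bases after it, outside the bases shown. TGANTCA, held by 7.81%, was in none of the 3. These matches are letters only and were not tied to any change.

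Among the redox genes around Sod2 and G6pdx, both directions occurred. Of 23 genes for superoxide and peroxide removal 4 were listed. Sod2 and the mitochondrial peroxiredoxin gene Prdx3 (1.25 ± 0.07) were higher, and the metallothionein gene Mt1 (-1.77 ± 0.08) and Txnip (-1.77 ± 0.17), an inhibitor of thioredoxin, were lower in the libraries labelled hypoxia (log2 differences, SE). With TMM factors Prdx3 was at 0.00 and no longer called (limma, adjusted p = 0.97). Mt1 averaged 10.56 ± 0.04 under the hypoxia label and 12.33 ± 0.09 under the normoxia label (log2 entries, SD, n = 3 each). The cytosolic dismutase gene Sod1 and the catalase gene Cat were not among the selected genes.

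Genes for NADPH supply numbered 20, of which 4 were listed, each higher under the hypoxia label as deposited, beside 79.4% of all tested genes. They were H6pd (1.55 ± 0.15), the counterpart of G6pdx in the endoplasmic reticulum, the isocitrate dehydrogenase gene Idh1 (1.23 ± 0.08), the NAD kinase gene Nadk (1.08 ± 0.07) and G6pdx, as log2 differences with SE. With TMM factors Nadk and G6pdx turned to -0.18 and -0.20, Idh1 was at 0.02 and H6pd alone was still called higher (0.35; limma, adjusted p = 0.0498). The next enzymes of the pathway, Pgls and Pgd, were not among the selected genes.

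Of 16 glutathione genes 3 were listed. The cystine carrier gene Slc7a11 (1.33 ± 0.14) and the glutaredoxin gene Glrx (1.09 ± 0.09) were higher under the hypoxia label as deposited. With TMM factors neither was called higher, with Slc7a11 at 0.35 (limma, adjusted p = 0.0502) and Glrx at -0.14. Gsta4, which conjugates products of lipid peroxidation, was lower, at 4.17 ± 0.13 in the libraries labelled hypoxia and 6.93 ± 0.13 in those labelled normoxia (log2 entries, SD, n = 3 each). The difference of Gsta4, -2.76 ± 0.10 (log2, SE), was the largest among the listed genes of these lists that were lower under the hypoxia label, ahead of Hmox1.

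Of 23 genes of the NRF2 system, the transcription factor that drives many antioxidant genes, 3 were listed. Under the hypoxia label Slc7a11 was higher as deposited but not called with TMM factors, Hmox1 was lower, and so was the small Maf gene Maff (-1.90 ± 0.09), whose product pairs with NRF2 at antioxidant response elements. The NRF2 gene Nfe2l2, its inhibitor Keap1 and the targets Nqo1, Gclc, Gclm, Srxn1 and Txnrd1 were not among the selected genes. Of 14 genes for superoxide and nitric oxide production 0 were listed.

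Over the 10 lists together, 27 of 160 distinct genes were listed, 20 higher and 7 lower, which is 74.1% higher beside 79.4% of all tested genes. With TMM factors 7 of the 20 lay below 0 and 9 were still called higher. Of the 1633 tested genes higher as deposited, 547 lay below 0 and 571 were still called higher. Without the 6 members the count was 16 higher and 5 lower of 21. Steap4, whose direction was fixed by the filter, is among the 20, the 9 and the 16. The 79.4% of all tested genes holds such genes too. The median log2 difference over the 27 genes was 1.22, beside 1.15 over all tested genes, so the lists as a whole moved much as the table did.

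**Figure D3:**
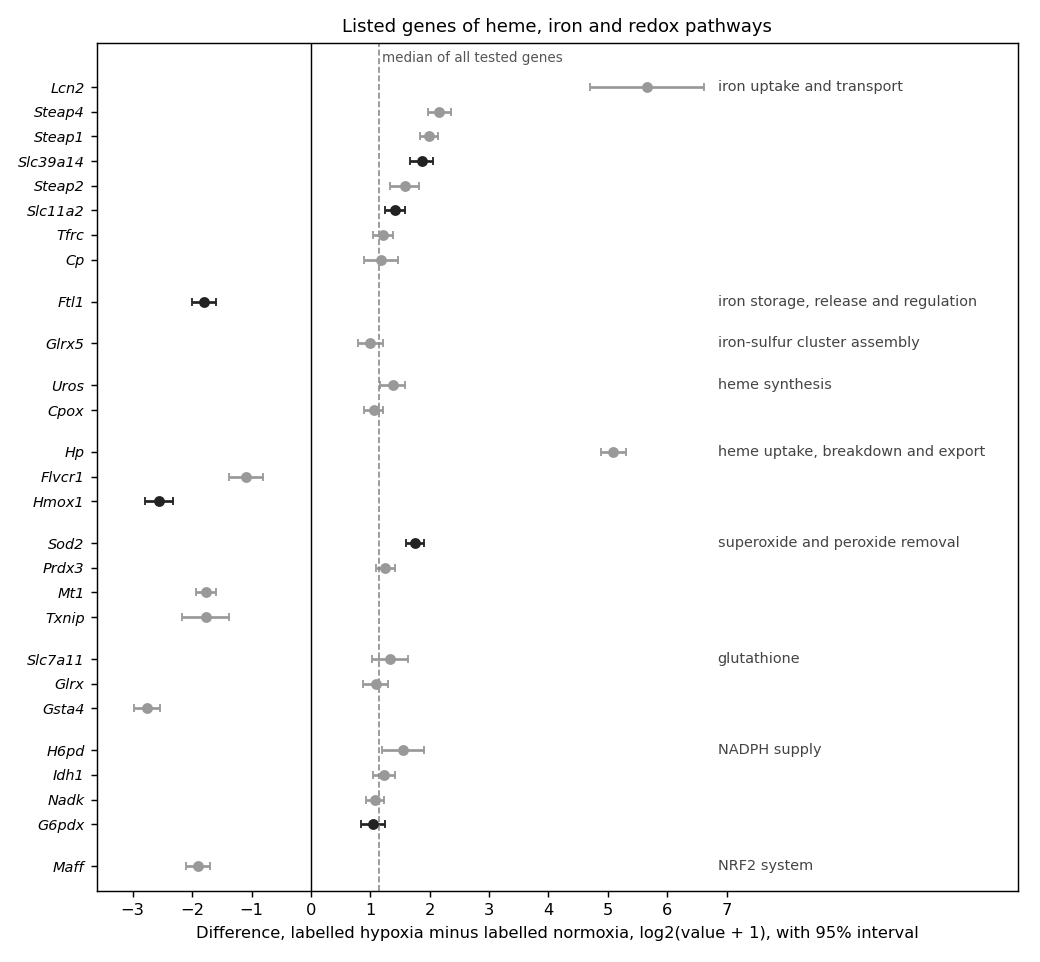
Log2 differences, labelled hypoxia minus labelled normoxia (horizontal axis), of the 27 listed genes of the heme, iron and redox lists, grouped by the first list that holds them. Points are limma estimates with 95% intervals, black for the 6 members and grey for other genes, and the dashed line is the median of all tested genes, 1.15. All 8 genes of iron uptake and transport lie above 0 as deposited, Steap4 among them with a direction fixed by the filter. The 7 genes below 0 include Ftl1, Hmox1 and Gsta4.

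Ratios between members within a library are not moved by a scaling factor per library, apart from the pseudocount, and 4 ratios chosen by role were compared. With 3 libraries against 3, the smallest p an exact two-sided permutation test can give is 0.10, and each of the 4 gave p = 0.10 (adjusted p = 0.10 over the 4), with no overlap between groups. The log2 ratio of Slc39a14 over Ftl1, import over storage, was -5.71, -5.72 and -5.64 in the libraries labelled hypoxia and -9.11, -9.31 and -9.67 in those labelled normoxia, a difference of 3.67. This was the largest shift of the 4, as the only pair whose members moved in opposite directions as deposited. All members were picked for change in these libraries, so separation of the groups in these ratios is not independent evidence. The log2 ratio of the importers, Slc39a14 over Slc11a2, was 0.71 ± 0.01 under the hypoxia label and 0.26 ± 0.06 under the normoxia label (SD, n = 3 each), so Slc39a14 differed more than Slc11a2 by 0.45. Hmox1 over Ftl1 stood at -3.29 ± 0.11 under the hypoxia label and -2.53 ± 0.05 under the normoxia label, so Hmox1 was lower under the hypoxia label by 0.76 more than Ftl1. Sod2 over G6pdx stood at 1.21 ± 0.04 under the hypoxia label and 0.50 ± 0.16 under the normoxia label, a difference of 0.70. The absolute level of such a ratio depends on transcript length if the unnamed unit is not per length, so only its difference between groups is read.

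**Figure D4:**
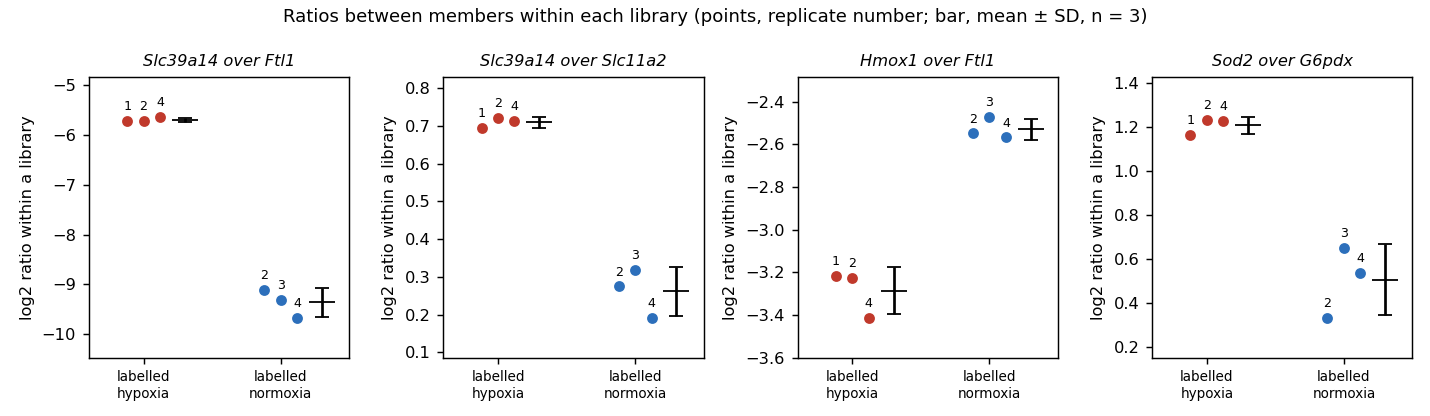
Log2 ratios of linear values + 1 between pairs of members within each library (vertical axes, not from 0), for libraries labelled hypoxia and normoxia. Points are libraries with their replicate number, and bars are means ± SD (n = 3). Slc39a14 over Ftl1 lies between -5.72 and -5.64 under the hypoxia label and between -9.67 and -9.11 under the normoxia label.

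The direction of 1 member depended on the scaling. TMM factors are built on the assumption that the bulk of genes did not change, whereas this table holds genes picked for change. They moved the median log2 difference of all tested genes from 1.15 as deposited to 0.03, and after quantile normalization it was 0.36. With TMM factors 27.8% of tested genes were called higher and 23.1% lower, and with quantile normalization 67.6% and 20.5%. Relative to the shifted median, Hmox1 and Ftl1 remained lower in the libraries labelled hypoxia, at -3.83 ± 0.14 and -3.08 ± 0.13 with TMM factors (log2, SE). Slc39a14 and Sod2 remained higher, at 0.61 ± 0.07 and 0.49 ± 0.08. Slc11a2 was at 0.17 ± 0.06 (limma, Benjamini-Hochberg adjusted p = 0.0475), near the threshold. G6pdx turned to -0.20 ± 0.07 (limma, Benjamini-Hochberg adjusted p = 0.0475), while quantile normalization left it higher at 0.34. As deposited, G6pdx lay below the median of 1.15, so a value below the shifted median follows from the scaling.

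**Figure D5:**
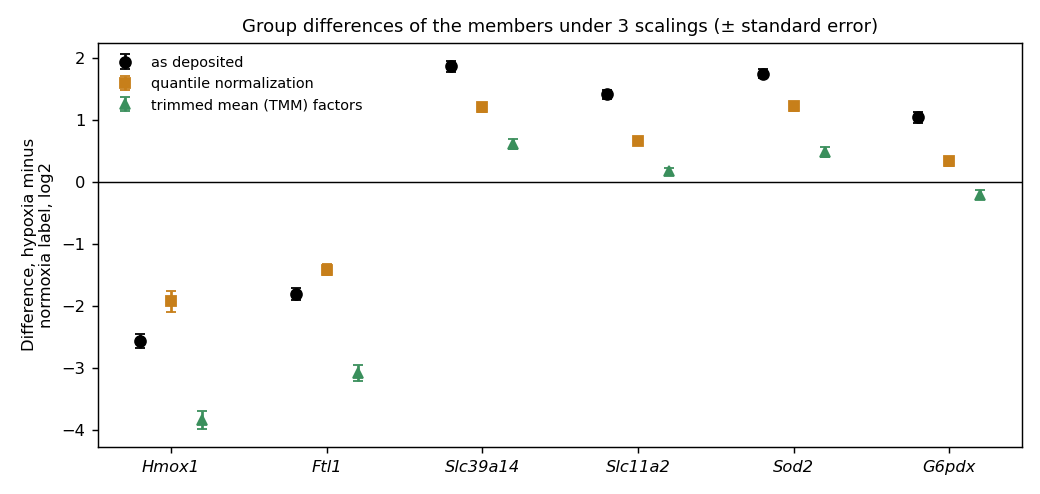
Log2 differences, labelled hypoxia minus labelled normoxia (vertical axis), of the 6 members as deposited, after quantile normalization and with TMM factors. Points are limma estimates and bars are ± 1 standard error. Hmox1 and Ftl1 lie below 0 under all 3 scalings, Slc39a14, Slc11a2 and Sod2 lie above 0 under all 3, and G6pdx is at 1.05, 0.34 and -0.20.

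The listed genes most like each member were found by the root mean square distance between profiles centred on their own mean, over the 6 libraries and 1461 candidate genes, on the log2 scale. These libraries form 2 groups and the genes were selected for that contrast, so near profiles are common. Nearest to Hmox1 were Ccng2, which encodes the atypical cyclin G2 (distance 0.05), and the skeletal actin gene Acta1 (0.08), and nearest to Ftl1 were Tatdn2 (0.03) and C77080 (0.06). Slc39a14 was most like Pdgfa, a chain of platelet-derived growth factor (0.04), and Pcdh1, a protocadherin (0.05). Slc11a2 was most like the clock gene Arntl (0.02) and the SNARE gene Bet1l (0.02). Sod2 was most like Ccdc134 (0.04) and the lysine methyltransferase gene Eef1akmt1 (0.05), and G6pdx was most like Tmtc4 (0.02) and Syngr2 (0.03). None of these 12 genes is on a heme, iron or redox list. At most 21 genes of those lists stood among the 1461 candidates, so none was likely by number alone.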

How the data were processed

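Messenger RNA of MLO-Y4 cells was sequenced in 3 libraries labelled hypoxia and 3 labelled normoxia. Per the submitters' processing notes, the tools were FastQC 0.12.0 and DRAGEN, on the build GRCm39 (mm39), with settings not given in the sources used here. What the authors deposited was log2 entries per library, a log2 fold change and an adjusted p-value for 2065 selected genes. All entries, raised from the log2 scale and reduced by 1, had 3 decimals (tolerance 1e-06), so they were read as log2(value + 1), and the deposited fold change is the difference of group means of these entries. The largest deposited adjusted p-value, as the authors gave it, is 0.0926, and no source used here gives the test behind it. Another 21 columns were not used: 18 repeat or extend library values for selected genes, and 3 hold values of mice of no sample of the series.

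Genes that reached a linear value of 1 in 3 or more libraries (2056, with 9 left out) were fitted with limma 3.58.1 in R 4.3.3 (trend, robust, pseudocount 1), two-sided, with Benjamini-Hochberg adjustment over all of them. The script was tested on simulated data. Copies of members were sought with BLAST 2.17.0 among GENCODE vM21 transcripts. That annotation and the RefSeq promoters are of GRCm38, an older build than the authors', so coordinates belong to the printed sequences only. Genes named were the members, the listed genes of 10 written pathway lists and of a list of hypoxia-inducible factor targets, copies of members, and the 2 genes most like each member (mean linear value of at least 5, predicted genes and pseudogenes left out). Ftl2-ps, the hairpin search and absent genes were named after values were seen. The members and lists were chosen with earlier results of these data known. As alternatives, the pseudocount was set to 0.1 or 5, the filter dropped or raised to 5, the libraries rescaled by TMM factors or quantiles, the trend left out, the replicate number added as a block, each library omitted in turn, and the threshold set to 0.01.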

Additional observations from a re-analysis of the deposited data

How the results depend on the processing

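Of 188 values under alternatives, 1 reversed direction. No result with a test changed its side of the threshold without reversing, though sizes changed under rescaling, some smaller and some larger. TMM factors turned G6pdx to -0.20 and reduced Slc39a14 to 0.61, Sod2 to 0.49 and Slc11a2 to 0.17 (limma, adjusted p = 0.0475). The same factors enlarged the difference of Hmox1 to -3.83 and that of Ftl1 to -3.08. They lowered the count of listed genes called higher to 571 and that of the heme, iron and redox lists to 9. The counts called lower rose to 475 and 10. With these factors the median log2 difference of all tested genes was 0.03, beside 1.15 as deposited. Quantile normalization reduced Slc39a14 to 1.21, Sod2 to 1.22, Slc11a2 to 0.66 and G6pdx to 0.34. It ranks genes within this selected table and moved the ratio differences of Slc39a14 over Ftl1 to 2.61, Slc39a14 over Slc11a2 to 0.55, Hmox1 over Ftl1 to -0.51 and Sod2 over G6pdx to 0.88, where the cause was not tested. Leaving out each library in turn gave differences of -2.66 to -2.48 for Hmox1, -1.89 to -1.74 for Ftl1 and 1.78 to 1.92 for Slc39a14. The ranges were 1.36 to 1.45 for Slc11a2, 1.71 to 1.79 for Sod2 and 0.98 to 1.13 for G6pdx. Listed genes called higher numbered 1528 without any 1 library labelled hypoxia and 1633 without any 1 labelled normoxia. The filter still asked for 3 libraries, so genes that met it only in the 3 labelled hypoxia then dropped out untested. Genes called lower ran from 375 to 423. With the replicate number as a block the differences were -2.54 for Hmox1, -1.78 for Ftl1, 1.93 for Slc39a14, 1.44 for Slc11a2, 1.79 for Sod2 and 1.00 for G6pdx, and no member's call changed. The groups share the numbers 2 and 4 only, the deviations of same-numbered libraries correlated at 0.08 and -0.07 across genes, and the labels do not say what a number marks. Depth is unknown, so no limit from counting can be given.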

Other observations

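Zinc carriers, a group written down after values were seen, lie next to Slc39a14, which also carries zinc. Of the ZIP (Slc39) genes, which bring zinc into the cytosol, and the ZnT (Slc30) genes, which move it out or into compartments, 6 were listed, 3 of each family, and all 6 were higher in the libraries labelled hypoxia as deposited, beside 79.4% of all tested genes. With TMM factors 4 were still called higher and 1, Slc30a5, was at -0.03. Of the 1633 tested genes higher as deposited, 571 were still called higher and 547 lay below 0. Slc39a1 averaged 7.41 ± 0.03 in the libraries labelled hypoxia and 5.89 ± 0.19 in those labelled normoxia, and Slc39a9 averaged 5.16 ± 0.01 under the hypoxia label and 3.62 ± 0.25 under the normoxia label (log2 entries, SD, n = 3 each). Slc30a7, a carrier of the Golgi apparatus, averaged 4.92 ± 0.12 under the hypoxia label and 2.75 ± 0.64 under the normoxia label. The early secretory pathway partners Slc30a5 and Slc30a6 were higher under the hypoxia label as deposited by 1.20 ± 0.08 and 1.24 ± 0.12 (log2 differences, SE). Mt1, whose product binds zinc, was lower, as given above.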
